A study of Homo sapiens with 12 samples.

Results

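The genes described here are 35 genes of DNA replication and of the passage from G1 into S phase, taken by name from the 38478 genes for which expression values were deposited. Their roles run from origin licensing to the cyclins E. They were chosen by name and function, with no threshold on a measured value, but with earlier results of these data known. RNA-seq was performed on the human myeloma cell line OPM-1 after 48 h in DMSO (vehicle), lenalidomide at 0.1 μM (LEN), the RUNX inhibitor AI-10-104 at 1 μM, or both drugs at those doses (LEN+AI-10-104). Each of the 4 conditions had 3 biological replicates, 12 samples in all, and polyadenylated RNA was sequenced to between 16352548 and 31386210 reads on genes per sample. Expression is given as RPKM, reads per kilobase of gene, scaled to the reads on genes in each sample. The combination had the lowest median depth, 19417027 reads against 30219883 in DMSO. OPM-1 is a single cell line, so the replicates show the spread between cultures of this line and not between myelomas.

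Before DNA is copied, the origin recognition complex (its largest subunit is ORC1) together with CDC6 and CDT1 loads the MCM2 to MCM7 helicase onto origins, a step called licensing. In S phase MCM10, CDC45 and the GINS complex switch the helicase on, the replicative polymerases copy both strands behind it, and the PCNA clamp, loaded by the RFC complex, holds the polymerases on the DNA. Most of these genes are transcribed late in G1 by E2F factors, which are released when CDK4, CDK6 and later cyclin E with CDK2 phosphorylate the retinoblastoma protein, so their mRNAs are widely used as a readout of proliferating cells. Lenalidomide directs the cereblon ubiquitin ligase to the transcription factors IKZF1 and IKZF3, and it slows the growth of sensitive myeloma cells. The authors of the study count OPM-1 among the lenalidomide-insensitive lines. They report that neither drug alone, at the doses used here, was effective in stopping its growth. Whether the single drugs and their combination moved this transcript program in OPM-1 is the question the comparisons address.

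Promoters of many of these genes carry recognisable E2F letters, and a few are shown because these letters were more frequent in the members than in other genes. RefSeq windows (GRCh38.p14) from 250 bases before to 50 bases after the start were at hand for 31 of the 35 genes. TTTCCCGC, TTTGGCGC, TTTCGCGC or TTTGCCGC, on either strand and with overlapping matches counted, occurred in 17 of the 31 (54.8%). Among the 8088 tested genes with a window the share was 7.22%, and among all 27305 genes with a window it was 3.99%. TGTGGT, a core of RUNX binding sites, was found in 3 of the 31 (9.68%), against 12.7% of the tested genes and 15.6% of all genes. A match is a description of the letters and not a measured binding site. In the stretches below, read on the strand of the gene and ending before its start, capitals mark the E2F letters. MCM6, a helicase subunit, has 4 matches in the stretch chr2:135876514-135876603 (minus strand), in a pair of repeats that each hold a match on either strand.
MCM6: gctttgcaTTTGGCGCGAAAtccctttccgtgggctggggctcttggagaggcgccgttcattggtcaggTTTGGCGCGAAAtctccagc
The E2F1 stretch, chr20:33686386-33686445 (minus strand), has 2 matches, 1 on each strand.
E2F1: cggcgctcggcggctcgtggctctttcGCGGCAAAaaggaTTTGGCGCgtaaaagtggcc
CDT1, POLA1 and PCNA have 1 match each, all on the opposite strand, in chr16:88803729-88803788 (plus strand), chrX:24693768-24693827 (plus strand) and chr20:5126643-5126702 (minus strand).
CDT1: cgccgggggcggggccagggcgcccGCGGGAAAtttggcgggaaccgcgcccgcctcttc
POLA1: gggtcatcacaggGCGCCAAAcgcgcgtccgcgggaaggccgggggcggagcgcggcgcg
PCNA: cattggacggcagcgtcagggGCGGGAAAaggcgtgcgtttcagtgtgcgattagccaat

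In DMSO these transcripts were abundant. All 35 genes passed the filter on low values, a mean of at least 0.5 RPKM, as did 11241 genes in total. Their median level in DMSO was 54.7 RPKM, against 8.50 RPKM over all genes tested, and 29 of the 35 lay above the 75th percentile of the tested genes. PCNA stood highest at 251 ± 11.2 RPKM (SD, n = 3), followed by MCM4 at 225 ± 4.15 and RRM2, the S-phase subunit of ribonucleotide reductase, at 223 ± 9.47. CCNE2 was the lowest at 2.21 ± 0.37 RPKM, with 192 to 349 reads per sample, whereas every other member had at least 542 reads in every sample. RFC3, the next lowest at 8.67 ± 0.29 RPKM, was divided by a deposited length of 16948 bases while its GENCODE 44 exons cover 2858, so its level cannot be ranked against the others. The replicates were tight: the median coefficient of variation within a condition was 3.08% for the members and 4.85% for all genes tested.

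Across the 12 samples most members kept within a narrow range. The highest sample exceeded the lowest by less than 1.25 times for 29 of the 35 genes, with a median ratio of 1.15. This ratio was not computed over all genes tested, so the narrow range is not shown to be particular to the members. MCM3, a helicase subunit, was the steadiest, between 148 and 159 RPKM. Beyond the cyclins E, whose ratios were 1.49 for CCNE1 and 1.84 for CCNE2, the widest range was 1.35 for GINS1. Reads on the 35 genes made up 0.814% to 0.867% of all reads on genes per sample, with means of 0.854% in DMSO, 0.853% with LEN, 0.835% with AI-10-104 and 0.828% with both drugs. The heat map of the members by sample shows this flat pattern with the cyclins E as its exceptions.

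**Figure D1:**
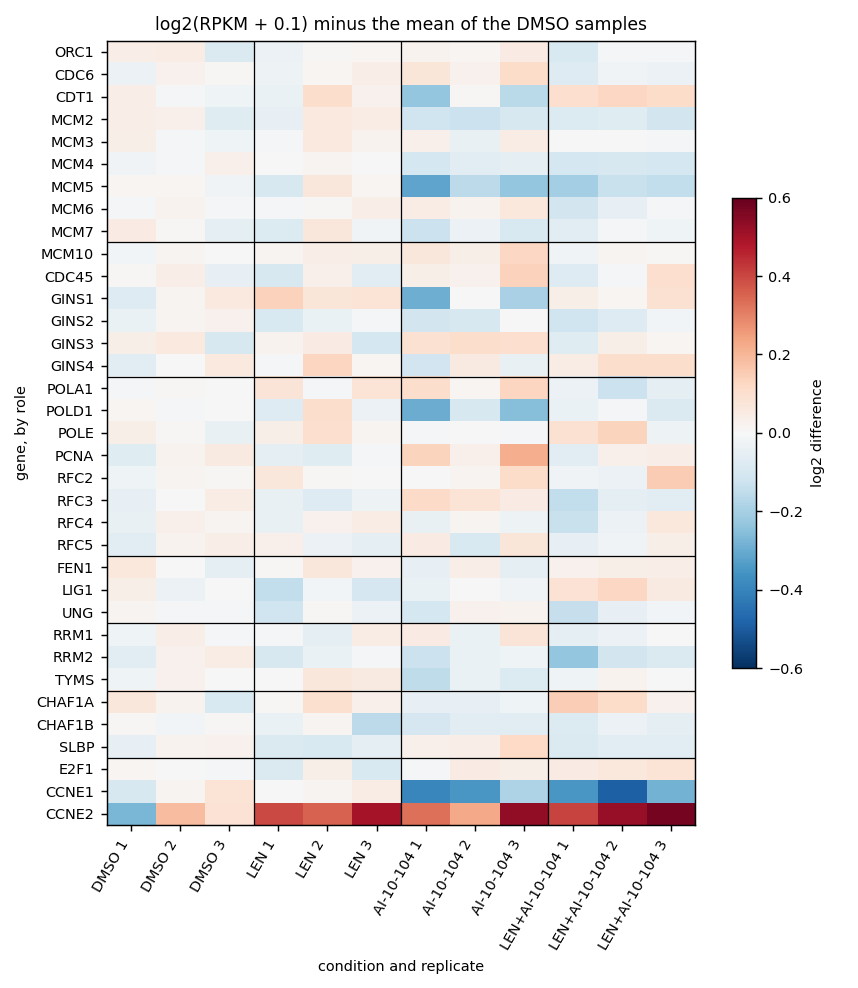
Heat map of the 35 genes (rows, ordered by role, with lines between roles) in the 12 samples (columns), coloured by log2(RPKM + 0.1) minus the mean of the 3 DMSO samples. Nearly all cells are pale, CCNE1 is blue in the 6 samples with AI-10-104, and CCNE2 is red in the 9 treated samples.

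Differences between conditions were tested with limma on log2(RPKM + 0.1), with Benjamini-Hochberg adjustment over all genes tested, and calls needed both an adjusted p of at most 0.05 and a log2 fold change of 0.32 or more in size. With LEN, 0 of the 35 members were called (background 0.649% of all genes tested), and 3 had an unadjusted p under 0.05, as did 10.7% of all genes. Using limma's voom on the reads, 1 member, CCNE2, was called, where 100 genes were called higher and 4 lower among all 11241. With AI-10-104, 0 members were called (background 1.77%), and 11 had an unadjusted p under 0.05, as did 21.9% of all genes. By voom 1 member was again called, CCNE2, where 114 genes were called higher and 168 lower among all 11241. With LEN+AI-10-104, 1 member rose (CCNE2; background for higher genes 2.30%) and 1 fell (CCNE1; background for lower genes 0.641%), against 2.94% of all genes called in either direction. An unadjusted p under 0.05 was found for 7 members and for 23.7% of all genes. By the adjusted p alone, 1 member was higher with the combination (CCNE2) and 2 were lower (CCNE1 and MCM4), against 8.64% of all genes in either direction. These comparisons share the same 3 DMSO samples, so they are not independent of each other.

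The separation of the individual samples was also counted. With LEN, 3 members had all samples above DMSO and 1 had all below, where 16.4% of all genes did not overlap in either direction. With AI-10-104, 7 lay above and 7 below (background 23.3%), and with the combination 4 lay above and 9 below (background 29.2%).

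Most members were bounded close to no change. The 95% interval of the log2 fold change lay within ±0.32, a factor of 1.25, for 34 of the 35 genes with LEN, 31 with AI-10-104 and 33 with the combination. Over all genes tested these intervals lay within that range for 75.4%, 70.0% and 69.1%, and over the 5399 genes in the members' range of DMSO levels (CCNE2 left aside) for 95.2%, 89.4% and 90.3%. The members thus stood close to other genes of this level of expression. Median log2 fold changes of the members were 0.01 with LEN, -0.02 with AI-10-104 and -0.03 with LEN+AI-10-104, beside 0.00, 0.01 and 0.02 over all genes tested. In bulk RNA, fewer cells in S phase and less RNA per cell cannot be told apart.

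**Figure D2:**
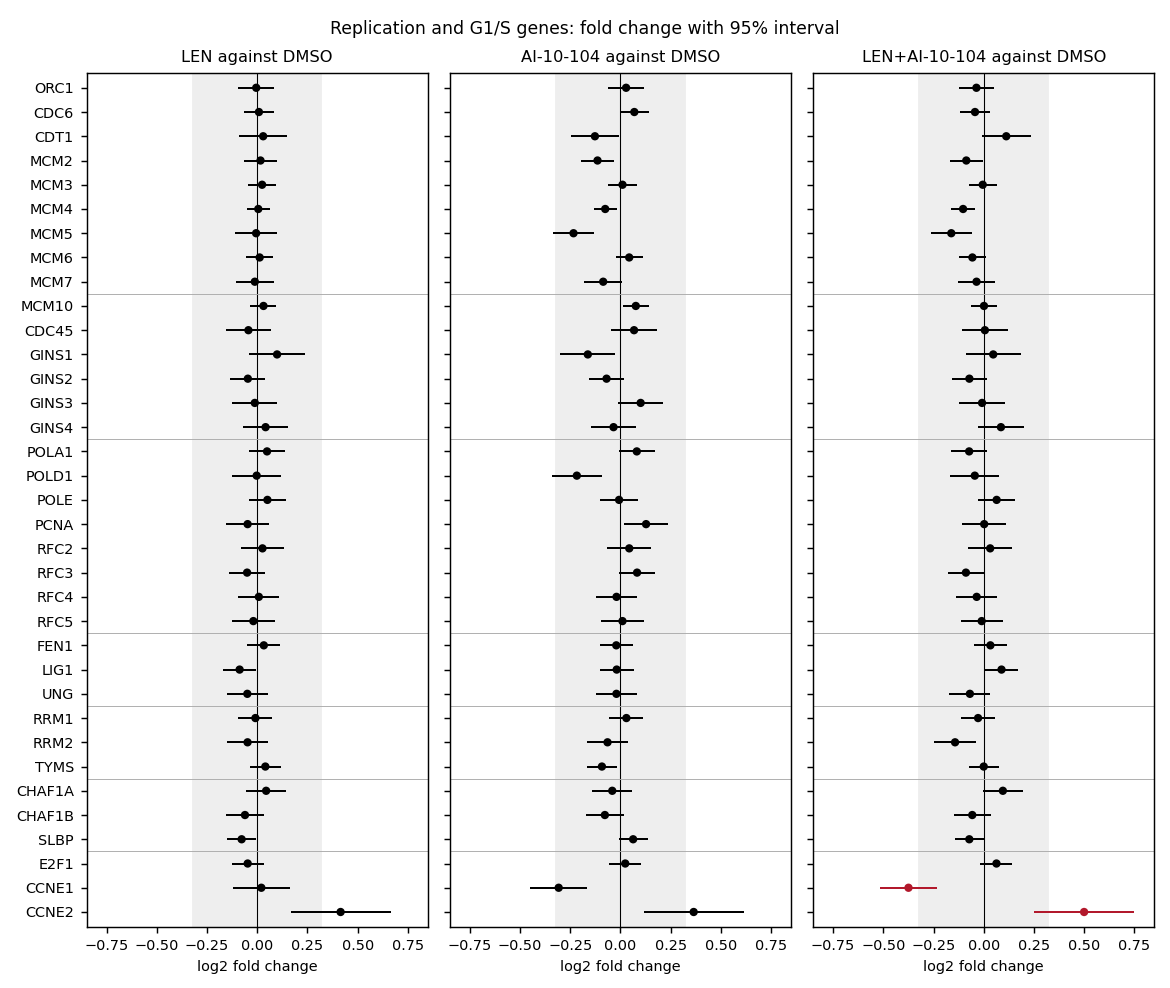
Log2 fold change of each gene against DMSO (points) with its 95% interval (lines) in the 3 treatments; the grey band spans ±0.32 and red marks called genes. Intervals of 34, 31 and 33 of the 35 genes stay inside the band from left to right, and the called genes are CCNE1 and CCNE2 with LEN+AI-10-104.

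The cyclins E moved in opposite directions. CCNE1 and CCNE2 encode cyclin E1 and cyclin E2, the related partners of CDK2 that drive entry into S phase. CCNE1 (chromosome 19, 29811991 to 29824312, plus strand, GENCODE 44 on GRCh38) measured 22.3, 24.1 and 25.2 RPKM in DMSO, 23.8, 24.1 and 24.5 with LEN, 18.2, 18.7 and 20.9 with AI-10-104 and 18.6, 16.9 and 19.5 with both drugs. All 6 samples with AI-10-104 lay below all 6 without it, while LEN alone overlapped DMSO. The share of all genes separating 6 samples from 6 was not computed. With the combination CCNE1 fell to 0.771 of its DMSO level (log2 fold change -0.37, SE 0.06, adjusted p = 0.00503), and to 0.760 of its level with LEN (-0.40, SE 0.06, adjusted p = 0.00548). AI-10-104 alone gave -0.31 (SE 0.06, adjusted p = 0.0221), which passed the adjusted p but stayed just under the fold threshold. The difference between LEN+AI-10-104 and AI-10-104 was -0.07, with a 95% interval from -0.21 to 0.07.

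CCNE2 went up instead. Its values were 1.79, 2.50 and 2.33 RPKM in DMSO, 2.91, 2.82 and 3.13 with LEN, 2.77, 2.58 and 3.21 with AI-10-104 and 2.92, 3.19 and 3.30 with both drugs. All 9 treated samples were above all 3 DMSO samples, and the treated conditions overlapped one another. The combination raised it 1.41-fold over DMSO (log2 fold change 0.50, SE 0.11, adjusted p = 0.0207). LEN gave 0.42 (SE 0.11, adjusted p = 0.14) and AI-10-104 0.36 (SE 0.11, adjusted p = 0.0923), neither of which passed the test. The 3 comparisons share DMSO replicate 1, the lowest control at 1.79 RPKM. Of the fits with 1 sample left out, the one without it gave the smallest rises. These were 0.28 with LEN, 0.23 with AI-10-104 and 0.36 with the combination. Removing a replicate of the combination ended the call of CCNE2 for replicates 2 and 3 (adjusted p of 0.0624 and 0.0650), and without replicate 2 CCNE1 fell by 0.318, just short of the fold threshold. Exons of 17 of the 35 members overlap those of another gene, among them CCNE2 with INTS8 on the opposite strand, and the strand setting of the counting is not given in the sources used here.

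The ratio of CCNE1 to CCNE2, both in RPKM, describes the shift per sample. It was 12.4, 9.63 and 10.8 in DMSO, 8.19, 8.55 and 7.84 with LEN, 6.54, 7.25 and 6.51 with AI-10-104 and 6.38, 5.32 and 5.92 with both drugs. No sample of any condition overlapped another condition, in the order DMSO, LEN, AI-10-104, LEN+AI-10-104. The ratio was formed after the values of both genes were seen and is given without a test. The summed level of both genes was 26.0 ± 1.80 RPKM in DMSO, 27.1 ± 0.50 with LEN, 22.1 ± 1.75 with AI-10-104 and 21.5 ± 1.35 with both drugs (SD, n = 3 each), so CCNE1, the far more abundant of the pair, set the sum.

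**Figure D3:**
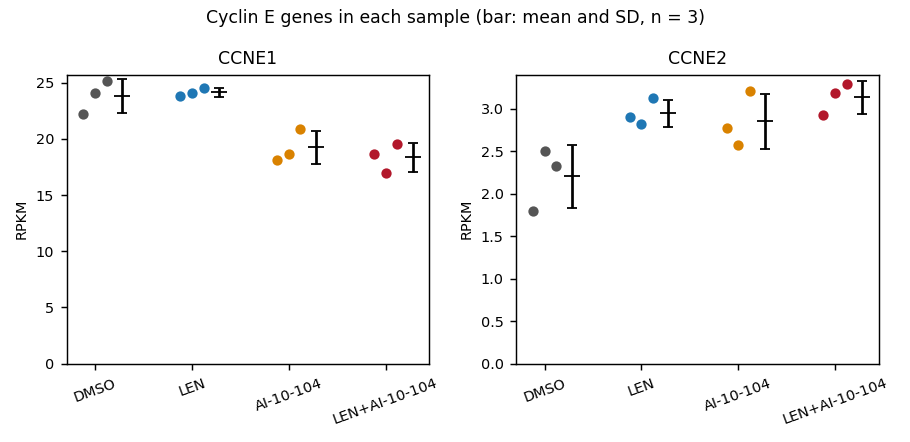
RPKM of CCNE1 (left) and CCNE2 (right) in each sample, with the mean and SD of the 3 replicates beside the points. CCNE1 lies at 22.3 to 25.2 in the 6 samples without AI-10-104 and at 16.9 to 20.9 in the 6 with it, and the 9 treated samples of CCNE2 lie above the 3 DMSO samples.

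E2F1, an activator of this transcript program and itself an E2F target, was called in 0 comparisons. It measured 39.1, 38.7 and 38.4 RPKM in DMSO, 36.4, 39.7 and 36.4 with LEN, 38.4, 40.1 and 39.7 with AI-10-104 and 40.1, 40.5 and 41.0 with both drugs. The combination samples lay above the DMSO samples by a log2 fold change of 0.06 (95% interval -0.02 to 0.14), which did not pass the test (adjusted p = 0.319).

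Among the 9 licensing genes 0 were called in any comparison, and the smaller differences are given gene by gene. MCM5, a subunit of the replicative helicase (chromosome 22, 35400134 to 35425431, plus strand), measured 185, 185 and 181 RPKM in DMSO, 172, 192 and 185 with LEN, 148, 165 and 156 with AI-10-104 and 159.7, 167 and 166 with both drugs. Every sample with AI-10-104 lay below every sample without it, a separation whose share over all genes was not computed. The fold change with AI-10-104 was -0.23 (SE 0.05, adjusted p = 0.0190), past the adjusted p and short of the fold threshold, and with the combination it was -0.16 (SE 0.05, adjusted p = 0.0568). By the adjusted p alone, 2 of the 35 members, MCM5 and CCNE1, were lower with AI-10-104 (background for lower genes 2.46%), and 0 were higher (background 2.09%).

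MCM4, a helicase subunit with tight replicates, gave smaller differences. Its levels were 222, 223 and 229.6 RPKM in DMSO, 225, 228 and 224 with LEN, 209, 214 and 217 with AI-10-104 and 209, 210.3 and 209 with both drugs. With the combination it gave -0.10 against DMSO (SE 0.03, adjusted p = 0.0342) and -0.11 against LEN (SE 0.03, adjusted p = 0.0411). MCM2 measured 99.2, 98.5 and 91.7 RPKM in DMSO, 93.1, 100.3 and 99.3 with LEN, 88.9, 88.1 and 90.2 with AI-10-104 and 91.2, 91.8 and 89.4 with both drugs, and neither -0.11 with AI-10-104 (adjusted p = 0.112) nor -0.09 with the combination (adjusted p = 0.191) passed. For MCM3 and MCM6, subunits of the same helicase, the log2 fold changes with AI-10-104 were 0.01 and 0.04.

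CDT1 and CDC6 load the helicase and are both destroyed or exported once S phase begins. CDT1 measured 70.4, 68.0 and 67.3 RPKM in DMSO, 66.6, 73.7 and 69.7 with LEN, 58.4, 69.0 and 61.3 with AI-10-104 and 73.5, 74.7 and 74.0 with both drugs. The combination samples lay above all DMSO and all AI-10-104 samples, with 0.11 against DMSO (SE 0.06, adjusted p = 0.247) and 0.24 against AI-10-104 (SE 0.06, adjusted p = 0.0178). CDC6 measured 57.8, 60.4 and 59.6 RPKM in DMSO, 58.1, 59.7 and 61.0 with LEN, 62.3, 60.3 and 63.9 with AI-10-104 and 56.1, 58.5 and 57.9 with both drugs, where it was lower than with AI-10-104 (-0.11, SE 0.03, adjusted p = 0.0437) and overlapped DMSO.

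Of the 6 genes that switch the helicase on, 0 were called. CDC45, the helicase cofactor, measured 48.4, 49.7 and 46.7 RPKM in DMSO, 45.1, 49.2 and 46.2 with LEN, 49.5, 49.1 and 53.1 with AI-10-104 and 45.7, 48.1 and 51.7 with both drugs, all overlapping. GINS1, a subunit of the GINS complex, measured 33.5, 35.7 and 36.8 RPKM in DMSO, 38.9, 37.2 and 37.4 with LEN, 28.8, 35.3 and 30.9 with AI-10-104 and 36.2, 35.7 and 37.6 with both drugs. Its AI-10-104 samples were the most spread. The log2 fold change with AI-10-104 was -0.16 for GINS1 (adjusted p = 0.161) and 0.10 for GINS3, another subunit of the complex, and neither was called.

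The 8 genes of the polymerases, clamp and clamp loader likewise gave 0 calls. PCNA, the sliding clamp, measured 239, 254 and 261 RPKM in DMSO, 242, 238 and 249 with LEN, 275, 257 and 292 with AI-10-104 and 240.2, 257 and 258 with both drugs. AI-10-104 gave 0.13 for PCNA (SE 0.05, adjusted p = 0.166) and -0.22 for POLD1, the catalytic subunit of polymerase delta (SE 0.06, adjusted p = 0.0512), and neither passed. POLA1, the catalytic subunit of the primase-associated polymerase, measured 19.4, 19.7 and 19.5 RPKM in DMSO, 20.6, 19.4 and 20.7 with LEN, 21.0, 19.7 and 21.4 with AI-10-104 and 19.1, 17.9 and 18.8 with both drugs. Its combination samples lay below all others.

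Genes of flap removal, ligation and uracil repair, of nucleotide supply, and of chromatin assembly were called in 0 comparisons. UNG, which removes uracil from DNA, measured 55.2, 54.5 and 54.4 RPKM in DMSO, 50.4, 55.0 and 53.3 with LEN, 50.8, 55.6 and 55.5 with AI-10-104 and 49.6, 52.8 and 54.1 with both drugs. LIG1, the ligase that seals Okazaki fragments, measured 27.8, 26.5 and 27.1 RPKM in DMSO, 24.5, 26.9 and 25.3 with LEN, 26.4, 27.1 and 26.8 with AI-10-104 and 28.8, 29.6 and 28.2 with both drugs. LIG1 was higher with the combination than with LEN in all 3 samples (0.18, SE 0.04, adjusted p = 0.0247), under the fold threshold.

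RRM2 and TYMS, targets of antimetabolite drugs, make deoxyribonucleotides. RRM2 measured 213, 227 and 230.5 RPKM in DMSO, 209, 217 and 222 with LEN, 204, 217 and 219 with AI-10-104 and 190.2, 207 and 210.3 with both drugs. Its combination samples all lay below the DMSO samples (-0.14, SE 0.05), which did not pass the test (adjusted p = 0.0872). TYMS, whose exons overlap those of ENOSF1 and TYMSOS on the opposite strand, measured 64.6, 67.0 and 65.5 RPKM in DMSO, 65.6, 68.7 and 68.3 with LEN, 59.0, 63.8 and 62.0 with AI-10-104 and 64.6, 66.6 and 65.8 with both drugs. SLBP, which binds the stem-loop of histone mRNAs, measured 114.1, 119.7 and 120.2 RPKM in DMSO, 111, 111 and 113.6 with LEN, 120.4, 121 and 128 with AI-10-104 and 111, 113 and 113 with both drugs. The 6 SLBP samples with LEN all lay below the 6 without it, although LEN against DMSO gave -0.08 and did not pass (adjusted p = 0.407). The gap was narrow, from 113.6 RPKM with LEN to 114.1 in DMSO, and the share of all genes separating in this way was not computed.

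LEN+AI-10-104 was next compared with each drug, to see what the second drug added. Against LEN, 1 member was called, CCNE1, which fell (background 1.68% in either direction, 0.810% lower). By the adjusted p alone, 1 member was higher (LIG1) and 2 were lower (CCNE1 and MCM4), against backgrounds of 2.48% and 2.14%. The samples did not overlap for 2 higher and 7 lower members (background 26.4%). Against AI-10-104, 0 members were called (background 3.63%), and 14 of the 35 had an unadjusted p under 0.05, as did 33.2% of all genes. By voom 0 members were called, where 382 genes were called higher and 49 lower among all 11241. By the adjusted p alone 2 were higher (CDT1 and GINS1; background 9.13%) and 4 were lower (CDC6, POLA1, RFC3 and SLBP; background 5.84%). The samples did not overlap for 7 higher and 8 lower members (background 34.1%). RFC3, the clamp loader subunit named above, measured 8.38, 8.67 and 8.95 RPKM in DMSO, 8.40, 8.21 and 8.48 with LEN, 9.39, 9.18 and 8.98 with AI-10-104 and 7.80, 8.35 and 8.29 with both drugs.

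The members' differences from AI-10-104 moved with base composition. The 15 members whose longest GENCODE transcript has at least 50% G and C had a median log2 fold change of 0.05, with 10 of them higher, and the 20 below 50% had a median of -0.05, with 15 lower. This split was not computed over all genes tested, so it is not shown to be particular to the members. With GC content and gene length corrected for in each sample, the medians were -0.05 and -0.04. The correction was fitted over all tested genes with known GC content, so it removes a general trend with GC by design. Of the 6 members past the adjusted p, GINS1 (0.28, adjusted p = 0.0237) and SLBP (-0.13, adjusted p = 0.0151) passed it after the correction. CDT1, at 64.3% GC, went from 0.24 to 0.06 (adjusted p = 0.139), and RFC3, at 38.0% GC, from -0.17 to -0.11 (adjusted p = 0.135). After the same correction, fold changes with the combination against DMSO were -0.42 for CCNE1 (adjusted p = 0.0025) and 0.52 for CCNE2 (adjusted p = 0.0053). CCNE2 was then also called with LEN against DMSO (0.42, adjusted p = 0.0474). Beyond this corrected fit, any part of base composition in the cyclin E differences was not tested.

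**Figure D4:**
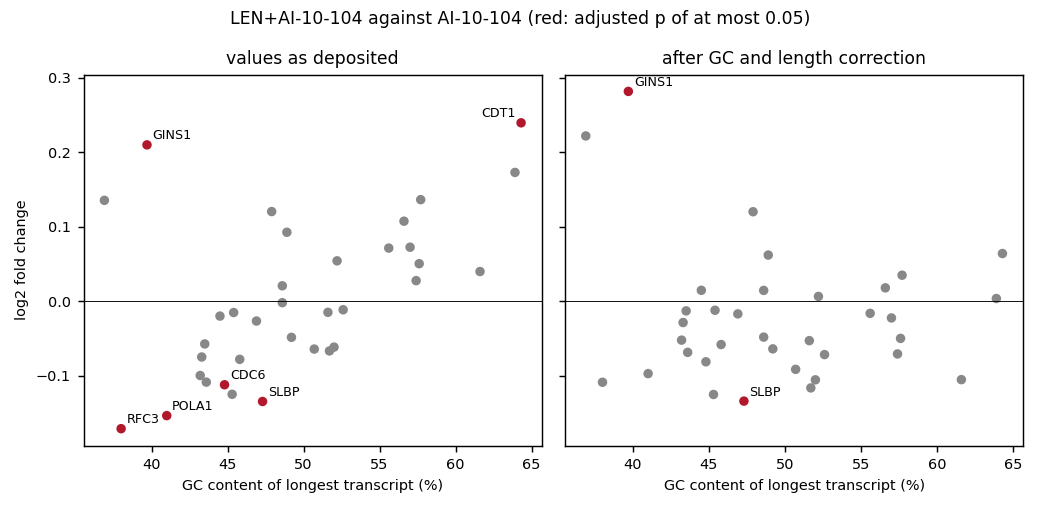
Log2 fold change of the 35 genes between LEN+AI-10-104 and AI-10-104 against the GC content of their longest transcript in percent, for the values as deposited (left) and after correction for GC content and gene length (right), with an adjusted p of at most 0.05 in red. On the left 6 genes are red, with CDT1 at the upper right and RFC3 at the lower left, and on the right GINS1 and SLBP are red.

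The interaction of the drugs, the effect of LEN in the presence of AI-10-104 minus its effect alone, was called for 0 genes by limma with all 12 samples. Among the members 0 of 35 passed (background 0.00%) and 7 had an unadjusted p under 0.05, as did 14.4% of all genes, while voom called 3 genes, none of them a member. The count over all genes turned on 1 library: without AI-10-104 replicate 2, limma called 427 genes higher and 130 lower (4.95% of those tested), among them 2 members, CDT1 and POLA1. LIG1 gave 0.20 (SE 0.05, adjusted p = 0.278) and POLA1 -0.20 (SE 0.06, adjusted p = 0.278), and CCNE1 gave -0.09 with a 95% interval from -0.29 to 0.11. For CCNE2 the interval ran from -0.63 to 0.07, which is wide, so an interaction of that size could not be resolved for it.

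**Figure D5:**
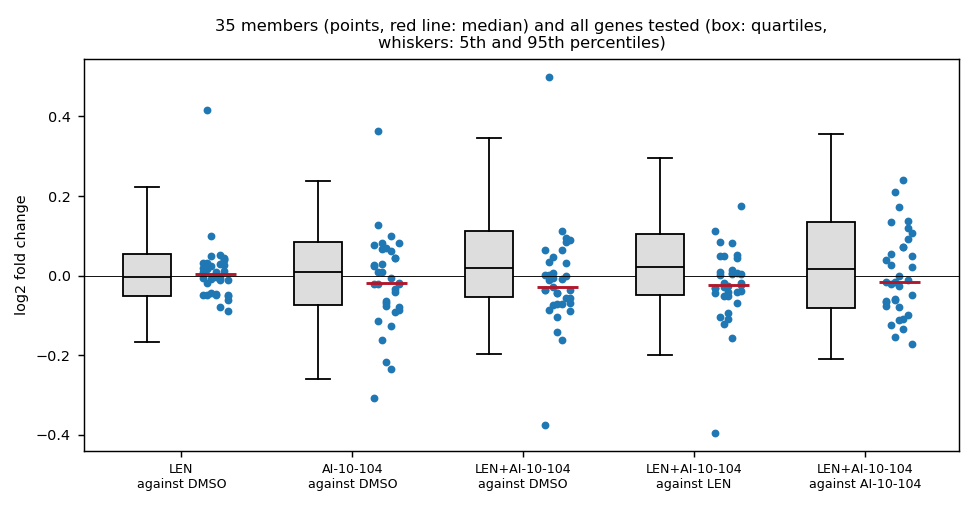
Log2 fold changes of the 35 genes (points, red line at the median) beside all 11241 genes tested (box at the quartiles, whiskers at the 5th and 95th percentiles) in 5 comparisons. CCNE2 is the highest point in the 3 comparisons with DMSO, CCNE1 is the lowest in those with AI-10-104 and LEN+AI-10-104, and the medians of the members lie between -0.03 and 0.01.

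Of 38 further fork and origin genes, 0 were called in any of the comparisons, by limma or by voom. With LEN, AI-10-104 and LEN+AI-10-104 against DMSO 3, 10 and 5 had an unadjusted p under 0.05, beside 10.7%, 21.9% and 23.7% of all genes. By the adjusted p alone 2 of them were lower with AI-10-104 (background 2.46%). These were TK1, which salvages thymidine (-0.22), and UHRF1, which maintains DNA methylation at the fork (-0.30). With the combination against DMSO 0 were higher or lower (background 8.64% in either direction). Against AI-10-104 it gave 3 higher and 4 lower (backgrounds 9.13% and 5.84%). The largest fold changes of this list with the combination against DMSO were -0.12 for DNA2, -0.12 for TICRR and -0.11 for ORC5, none past the test. Their medians were -0.01 with LEN, 0.01 with AI-10-104 and 0.01 with LEN+AI-10-104.

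Of 26 other G1/S regulators 24 passed the filter on low values, and 0 were called against DMSO by limma. For LEN, AI-10-104 and the combination 4, 6 and 7 had an unadjusted p under 0.05, beside 10.7%, 21.9% and 23.7% of all genes. With voom 1, CDKN1A, was called lower with the combination, as were 78 of the 11241 genes tested. CDKN1A, which encodes the CDK inhibitor p21, measured 0.785, 0.653 and 0.837 RPKM in DMSO, 1.07, 0.846 and 0.751 with LEN, 0.732, 0.360 and 0.557 with AI-10-104 and 0.449, 0.417 and 0.409 with both drugs. It had 18 to 68 reads per sample, and it was called lower with the combination than with LEN (log2 fold change -0.90, SE 0.21, adjusted p = 0.0295). In that comparison 0.810% of all genes were called lower. CDKN2D, the CDK4 and CDK6 inhibitor p19, was called higher with the combination than with AI-10-104 (0.35, SE 0.09, adjusted p = 0.0326). It was 1 of the 24 regulators, where 355 of all 11241 genes were called higher. After the GC and length correction CDKN2D was not called (0.18, adjusted p = 0.141). CCND3, a cyclin D, and CCNA2, the S and G2 phase cyclin, gave 0.24 (adjusted p = 0.0142) and -0.20 (adjusted p = 0.00553) with the combination against DMSO, under the fold threshold.

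Genes of mitosis and G2/M were set beside the replication genes because they mark the following phase. Of 27, 0 were called with LEN or with AI-10-104 by limma or voom (3 and 10 at an unadjusted p under 0.05, beside 10.7% and 21.9% of all genes). With LEN+AI-10-104 against DMSO 2 fell (background for lower genes 0.641%), with a median of -0.08 and 22 of the 27 below 0. An unadjusted p under 0.05 was found there for 13 of the 27, beside 23.7% of all genes. By the adjusted p alone 1 was higher and 5 were lower, against 8.64% of all genes in either direction. CENPF, a kinetochore protein, was at 77.3, 78.9 and 78.3 RPKM in DMSO and at 64.2, 62.4 and 54.9 with the combination (-0.37, SE 0.06, adjusted p = 0.00268). It was also called lower than with LEN (-0.33, adjusted p = 0.00748), as were 0.810% of all genes. PTTG1, or securin, was at 48.0, 45.6 and 46.5 RPKM in DMSO and at 36.1, 34.0 and 37.3 with the combination (-0.38, SE 0.04, adjusted p = 0.000218). AI-10-104 alone gave -0.27 for CENPF and -0.31 for PTTG1, both past the adjusted p and under the fold threshold. Among the members, 22 of 35 were below 0 in the same comparison with a median of -0.03, and the difference between the lists was not tested. Over all 11241 genes tested 4811 were below 0, and over the 5399 genes in the members' range of DMSO levels 2627 were.

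The identity of the cells was checked with marker genes. SDC1, TNFRSF17, CD38, PRDM1, XBP1, IRF4 and FGFR3, which mark plasma cells and this line, were between 28.6 and 654 RPKM in every sample. Of the markers of other cell types, EPCAM was listed at 0 in all samples, CD3E, CD14 and COL1A1 stayed at or below 0.55 RPKM, HBB was at 18.2 to 22.9, and PECAM1, which plasma cells also express, at 0.93 to 1.47. XBP1 was called lower with LEN+AI-10-104 than with AI-10-104 (-0.35, adjusted p = 0.000609). PECAM1 was called up with AI-10-104 (0.46, adjusted p = 0.0264) and with LEN+AI-10-104 (0.52, adjusted p = 0.00932), and any part of it in the cyclin E differences was not tested.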

How the data were processed

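Polyadenylated RNA of OPM-1 cells was sequenced in 12 samples. The authors made directional libraries, mapped reads to GRCh38 with STAR (named in the submitters' processing notes with Cuffnorm and DESeq2), and deposited RPKM values with gene lengths. Per the file headers the lengths came from featureCounts, and the strand setting of the counting is not given in the sources used here. The design assumed FPKM, but the file headers say RPKM, and the values were used as such. Values times length came out as whole reads for 100% of values above 0 (tolerance 0.01 read, up to 1000 reads), which gave the reads quoted here. Read numbers cover counting error only. Of the gene names, 28 were spreadsheet date numbers and were kept as such.

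Genes averaging 0.5 RPKM or more entered limma 3.58.1 (R 4.3.3, moderated test with trend) on log2(RPKM + 0.1). Because of the pseudocount, the fold changes of low genes are understated. All 12 samples were fitted with 1 mean per condition, and Benjamini-Hochberg adjustment ran over 11241 genes. The main test was set on the log scale because the design took the values as FPKM. Reads computed back from the values were used for voom as an alternative. Sample groups came from the sample titles. The procedure was tested on simulated data. Alternatives were other pseudocounts, filters and scalings, the compared conditions only, the replicate block, voom on reads, the adjusted p alone and leaving out each replicate. GC and length correction (lowess, span 0.3, GC known for 89.3% of tested genes) was added after seeing the data.

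The members and gene lists were chosen with earlier results of these data known. Genes shown per sample were those called, the 5 with the largest change with the combination, and 11 spanning the roles. MCM4, LIG1, GINS1, POLA1, RFC3, POLD1, MCM3, MCM6, GINS3, TK1, UHRF1, CCND3 and CCNA2 are outside it and were picked once their values had been seen. Of 8 plasma cell markers 7 were matched by symbol. No sample was left out, and the study's other data were not used here. Figures were drawn with matplotlib 3.10.9 in Python 3.11.15.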

Additional observations from a re-analysis of the deposited data

How the results depend on the processing

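Over the alternatives, 2476 of 2489 values of the 19 members followed singly kept their side of the call, 4 lost a call, 9 gained one, and none of the called values changed sign. Nearly all of these values were uncalled in the main fit, so this agreement says little about the calls themselves. The 4 lost calls were all of CCNE1 or CCNE2, and 81 uncalled values had the other sign. With LEN against DMSO the count of called members went from 0 to 1 (CCNE2) under voom and under the GC and length correction, with or without the replicate block. With AI-10-104 against DMSO it went from 0 to 1 under voom and to 2 by the adjusted p alone, and ranged from 0 to 1 over the samples left out, with 1 without DMSO replicate 1 (CCNE1), AI-10-104 replicate 2 (CCNE2) or AI-10-104 replicate 3 (CCNE1). With LEN+AI-10-104 against DMSO it was 2, 1 where every gene with any value above 0 was tested (CCNE2 at an adjusted p of 0.0564), and 0 to 2 over the samples left out, with 0 without combination replicate 2 and 1 without replicate 3. The adjusted p alone gave 3 members against LEN in place of 1 and 6 against AI-10-104 in place of 0. For the interaction 0 to 2 members passed over the samples left out, the 2 being CDT1 (0.28) and POLA1 (-0.24) without AI-10-104 replicate 2, where 4.95% of all genes passed in place of 0. Leaving out that library also raised the calls over all genes from 199 to 443 with AI-10-104 against DMSO and from 408 to 767 with the combination against AI-10-104. The first count was 119, 128 and 123 without AI-10-104 replicate 1, AI-10-104 replicate 3 and DMSO replicate 1, the second was 185, 214 and 218 without AI-10-104 replicate 1, AI-10-104 replicate 3 and combination replicate 1, and the count with LEN was 47, 48, 35 and 41 in place of 73 without DMSO replicates 2 and 3 and LEN replicates 1 and 3. The cause of these differences was not tested. In the wider filter both the fit and the adjustment ran over 24115 genes.

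Median-ratio rescaling moved the median of the members from -0.028 to -0.057 with the combination against DMSO and from -0.0239 to -0.0495 against LEN. It also turned the calls over all genes against LEN from 98 higher and 91 lower to 71 and 109. Against AI-10-104 the median was -0.0484 after the GC and length correction, with or without the replicate block, and ran from -0.0295 to 0.0153 over the samples left out, above 0 without AI-10-104 replicate 3 (0.0109) or combination replicate 1 (0.0153). The interaction's median ran from -0.0335 to 0.0139. With the replicate number as a block, the members called stayed at 0, 0, 2, 1, 0 and 0 over the 6 comparisons, and CCNE1 and CCNE2 with the combination had adjusted p of 0.00171 and 0.0119. Same-numbered samples of different conditions deviated together with a mean correlation of 0.05 over 18 pairs, against -0.03 over 36 other pairs, and 10 of 12 samples were most like one of their own number, a hint from the data and not the design. CCNE2 had at most 349 reads in a sample, the fewest of the members.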
